A study of Avicennia schaueriana with 18 samples.

Results

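The transcripts described here are the 200 coding transcripts of the mangrove tree *Avicennia schaueriana* that stood out most clearly in stems over leaves and flowers. They were chosen by their own levels. Counts were scaled to the total of the library (CPM, 1e6 times a count over that total), and each coding transcript was scored as the log2 ratio of its lowest CPM among 6 stem libraries to its highest CPM among 12 leaf and flower libraries, with 1 CPM added to both. The 200 highest scores were taken from 30113 coding transcripts that the rule could take, out of 30227 coding and 49490 transcripts in all. The rule left out 114 transcripts that the study lists with annotations or as targets of its qRT-PCR. None of the 200 members is paired with a gene name in the annotation tables used here, so they are given by the identifiers of the study's own assembly. Because the scores chose the members, every stem value set beside a leaf or flower value below is a description and was not tested.

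RNA came from stems, leaves and flowers of 6 adult trees sampled in the field, which gave 18 libraries, 3 from each tree. Trees St1, St2 and St4 grew at a subtropical site and were sampled at 18.3 to 20.9 °C and 82 to 86% relative humidity. Trees Eq4, Eq5 and Eq6 grew at an equatorial site and were sampled at 28.3 to 30.1 °C and 47 to 51% relative humidity. No treatment was applied, and site, weather, season and sampling day cannot be told apart. By the labels, the 3 libraries of a tree carried the same sequencing barcode and so cannot have shared a lane, and the lanes were not given in the sources used here. Within a tree, tissue and lane therefore cannot be told apart.

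A stem joins the leaves to the roots through xylem, which carries water, and phloem, which carries sugars and signals. Between and around them lie the cambium, which makes new vascular cells, and cortex, pith and a protective outer layer. Wood is mostly xylem cells with secondary walls of cellulose, xylan and lignin, and *Avicennia* is known for forming successive cambia, so that bands of xylem and phloem alternate in its wood. A sample of whole stem mixes these cell types, so that fewer cells of a type and less RNA per cell cannot be told apart in its counts.

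Stem libraries held 9894226 to 15802680 counts, leaf libraries 8749713 to 14313994 and flower libraries 5055480 to 11172632. No pair of stem libraries of a site agreed within sampling noise (chi-square per transcript 35.7 to 74.9). The flower library labelled Eq6 went against its label. It counted 53 of 65 transcripts found in every subtropical and no equatorial leaf or stem library, against 3 in the Eq4 flower, 3 in the Eq5 flower and 48 to 59 in the subtropical flowers. Without that library, 190 of the 200 members were chosen again.

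The members took 1.75%, 1.62% and 1.90% of the counts of stems St1, St2 and St4, and 1.55%, 2.04% and 2.01% of those of stems Eq4, Eq5 and Eq6. They averaged 1.76% ± 0.140 in subtropical stems and 1.87% ± 0.275 in equatorial stems (SD, n = 3 each), and the sites overlapped. In leaves the share was 0.124 to 0.160%, and in flowers 0.114 to 0.201%. Counting error was small beside the spread between libraries, since the 95% Wilson interval of a share was between 0.00390 and 0.0174 percentage points wide, and such intervals cover counting error only. For comparison, the 200 coding transcripts that the same rule gave for leaves took 5.06 to 8.03% of the leaf libraries, and those it gave for flowers took 3.33 to 6.87% of the flower libraries. The stem members thus took a smaller share of their own libraries than either of those lists.

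**Figure D1:**
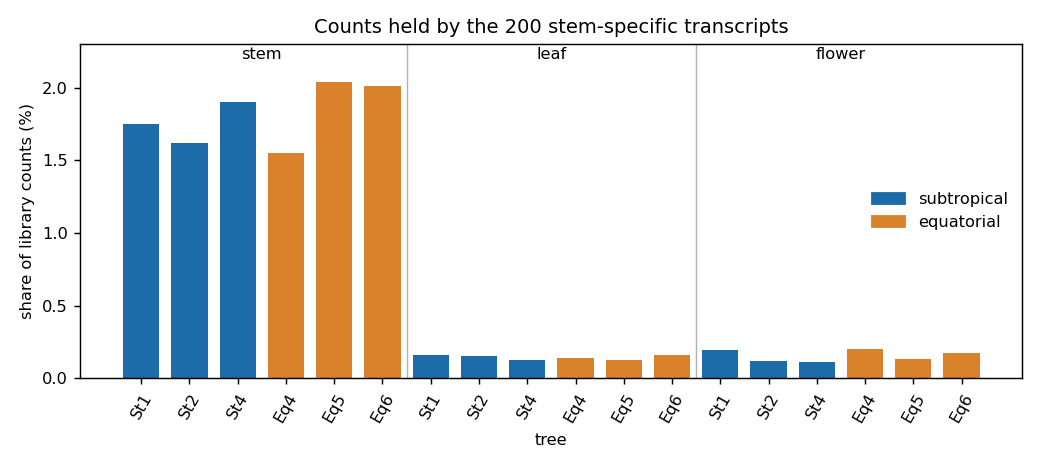
Share of the counts of each of the 18 libraries (y axis, percent) held by the 200 members, by tree (x axis) within stems, leaves and flowers, with subtropical and equatorial trees in different colours. Each bar is 1 library. The 6 stems lie between 1.55 and 2.04%, and no leaf or flower library is above 0.201%.

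The scores ran to 4.77, with a median of 1.72 and 1.18 at the last member. As a ratio of the lowest stem to the highest other library, with 1 CPM added to each, these are 27.4, 3.29 and 2.27. A score of 2 or more was held by 77 members and of 3 or more by 20. The list has no natural edge, since 1528 coding transcripts scored above 0. The last 3 members were As_19710 at 1.193, As_17884 at 1.181 and As_15645 at 1.181, and the first 3 outside were As_15922, As_2555 and As_21209, each at 1.18. By the same rule the leaf list had a median score of 1.37 and the flower list one of 3.18.

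All 200 members had counts in each of the 6 stems, and their mean stem levels ran between 2.58 and 1689 CPM, with a median of 30.3. There were 38 members at 100 CPM or more and 30 under 10 CPM. The 10 with the highest mean CPM held 40.0 to 48.2% of all member counts in a stem. Outside stems, most members were low rather than missing. A count in all 18 libraries was found for 84 members, while 10 had none in the 6 leaves, 11 none in the 6 flowers and 3 none in any of the 12.

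**Figure D2:**
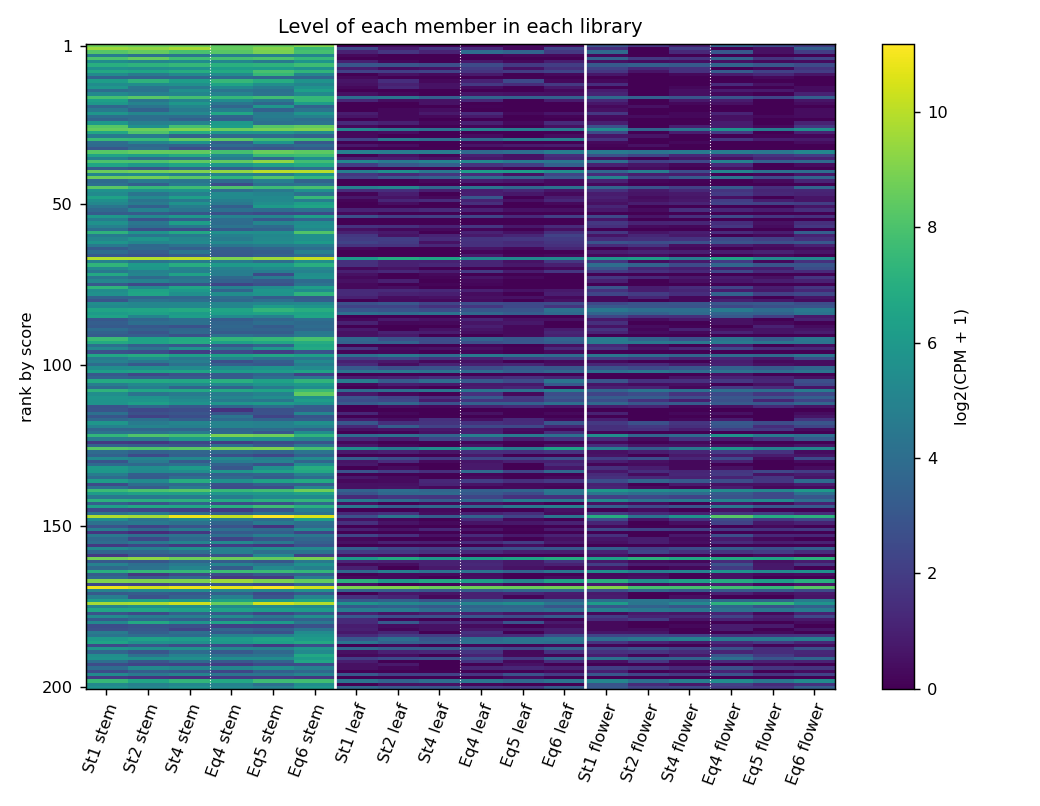
Levels of the 200 members (rows, ordered by score) in the 18 libraries (columns; stems, leaves and flowers, each with its subtropical trees before its equatorial ones), as log2(CPM + 1) in colour. The stem columns are brighter than the leaf and flower columns in each row, and the mean stem level does not follow the score, with As_31695, the highest of all at a mean of 1689 CPM, at rank 169.

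The 3 members with no leaf or flower count at all were As_25543, As_5204 and As_749. They were named after their values were seen. As_25543 had 7.18, 14.3 and 5.51 CPM in stems St1, St2 and St4, and 7.34, 6.72 and 8.32 CPM in Eq4, Eq5 and Eq6. The 12 leaf and flower libraries held 112824953 counts together, so that 0 of them allows a pooled level of up to 0.0266 CPM (3 counts). Against that limit, the pooled stem level was at least 299-fold higher for As_25543, at least 206-fold higher for As_5204 and at least 172-fold higher for As_749. All 3 were at low CPM in stems, at pooled stem levels of 7.95, 5.48 and 4.57 CPM.

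The highest score belonged to As_11451. Its levels were 423, 382 and 405 CPM in stems St1, St2 and St4, and 330, 354 and 540 CPM in stems Eq4, Eq5 and Eq6. It had 6 counts in all 6 leaves together, and 0.895 to 11.1 CPM in flowers. It was thus close to even across stems, nearly uncounted in leaves and low but counted in every flower.

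As_11088, at a score of 3.85, had a similar layout. It was at 259, 370 and 217 CPM in subtropical stems and at 227, 258 and 171 CPM in equatorial stems. No leaf library counted it, which over 63094748 leaf counts allows up to 0.0475 CPM, while flowers held 2.15 to 10.9 CPM. Of the 10 highest scores it was the one with no leaf count.

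As_13681, at a score of 4.24, was less even. Its levels were 718, 637 and 824 CPM in stems St1, St2 and St4, and 373, 544 and 196 CPM in stems Eq4, Eq5 and Eq6, with at most 4.35 CPM in leaves and 9.42 CPM in flowers. Every subtropical stem was above every equatorial one, but the difference did not pass the test across all transcripts (log2 fold change 0.87 ± 0.40 SE, edgeR quasi-likelihood adjusted p = 0.577). As_16351, at a score of 3.94, had 297, 372 and 250 CPM in subtropical stems and 310, 492 and 234 CPM in equatorial stems, which overlap.

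As_14862 was nearly absent outside stems. It had 26.9, 17.4 and 19.9 CPM in subtropical stems and 27.1, 28.0 and 32.6 CPM in equatorial stems, with 7 counts in all leaves and 2 in all flowers. The remaining members of the first 10 were As_18226, As_44102, As_41837, As_11995 and As_11168, with mean stem levels of 39.0, 158, 56.6, 139 and 57.7 CPM. As_11168 was uneven, at 40.3, 23.1 and 38.7 CPM in subtropical stems and 41.4, 171 and 31.7 CPM in equatorial stems. The Eq5 stem stood apart, and the other 5 lay between 23.1 and 41.4 CPM.

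**Figure D3:**
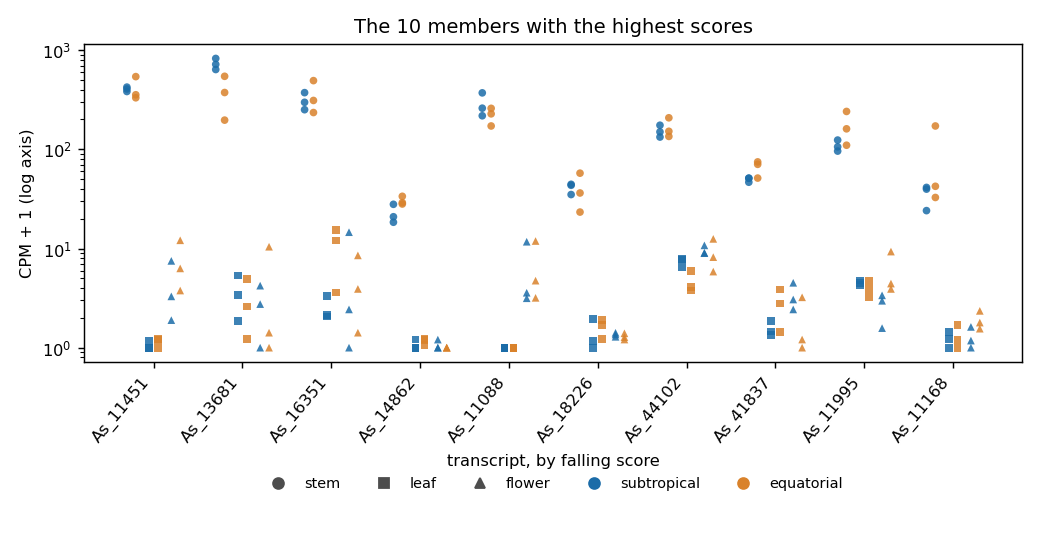
CPM + 1 (y axis, log scale) of the 10 members with the highest scores (x axis, falling score), each point 1 library, with circles for stems, squares for leaves and triangles for flowers and the sites in different colours. For As_11451 the stems lie between 330 and 540 CPM and no other library is above 11.1 CPM.

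Of the 10 members with the highest mean stem CPM, As_13681 and As_11451 were also among the 10 highest scores, and the others were counted in every leaf and flower library. As_31695 had 1820, 1348 and 1769 CPM in stems St1, St2 and St4, and 1742, 2139 and 1316 CPM in stems Eq4, Eq5 and Eq6, against 383 to 500 CPM in leaves and 174 to 534 CPM in flowers. Each stem exceeded each other library, by a score of 1.30. Such counts depend on transcript length, which was not used here, so levels of different transcripts are not set against each other as amounts of RNA.

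As_26273, at a mean of 1442 CPM in stems, differed between the other tissues. It was at 915, 813 and 1895 CPM in subtropical stems and at 1155, 2317 and 1555 CPM in equatorial stems. Leaves held 3.88 to 19.2 CPM and flowers 18.9 to 301 CPM. The flower level, with the highest value in Eq4, set its score of 1.43.

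As_11105, As_11082 and As_11119 averaged 925 ± 336, 903 ± 247 and 667 ± 275 CPM over the 6 stems (SD, n = 6). As_11250, As_26241 and As_48274 averaged 531 ± 121, 455 ± 86.2 and 441 ± 59.9 CPM (SD, n = 6). As_48274 was even across stems, at 373, 405 and 497 CPM in subtropical stems and 390, 462 and 518 CPM in equatorial stems, with 16.8 to 33.8 CPM in leaves and 11.5 to 51.6 CPM in flowers.

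No single order of leaf and flower held over the members. All 6 flowers were above all 6 leaves for 17 members (8.5%), against 16.6% of the 30193 coding transcripts with a count in these tissues, and all 6 leaves were above all 6 flowers for 6 members (3.0%), against 8.51%. Without the flower library labelled Eq6 the first count was 19 and the second 6. The library that held a member's highest level outside stems was most often the Eq4 flower, for 42 members, and the St1 flower, for 38. The Eq4 flower library was also the smallest of the 18.

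To see the tissue difference in libraries that had no part in the choice, the rule was applied to the 15 libraries of 5 trees and the sixth tree was read. Of the 200 transcripts so chosen, all 200 were higher in the stem than in the leaf and the flower of the left-out tree in St1, St2, St4 and Eq5. There was 1 exception in Eq4 and there were 2 in Eq6. Among all coding transcripts counted in a tree, 36.9 to 48.1% were highest in its stem. A stem level more than 2 times that of both other tissues was met by 189 to 200 of the chosen transcripts, against 9.78 to 15.0% of coding transcripts. For Eq6, whose flower library went against its label, the stem was above the leaf alone with 1 exception.

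The rule takes the lowest stem, so a low level in any stem counts against a transcript. The members were still not more even across stems than coding transcripts at large. The highest stem exceeded the lowest by 2.52 times at the median member, against 2.25 times at the median of 25440 coding transcripts counted in all 6 stems. For 57 members this ratio was under 2, for 36 it was over 5 and for 6 over 10. The middle part of the members, between the quartiles, ran from 1.89 to 3.90 times.

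The most even member was As_42498, at 30.3, 30.7 and 27.0 CPM in subtropical stems and 31.3, 28.3 and 28.5 CPM in equatorial stems, a ratio of 1.16. As_18930 and As_45000, each at a ratio of 1.26, averaged 43.5 ± 3.74 and 78.8 ± 7.74 CPM (SD, n = 6). In all 3 the ranges of the sites overlapped.

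The least even was As_16037, at a ratio of 22.3. It had 108, 32.6 and 86.3 CPM in stems St1, St2 and St4, and 25.6, 4.84 and 45.0 CPM in stems Eq4, Eq5 and Eq6, with 6 counts in all leaves and none in flowers. As_20044, at a ratio of 18.8, was set by 1 tree. It had 43.1, 18.4 and 22.4 CPM in subtropical stems, and 24.1, 30.0 and 345 CPM in equatorial stems, so that Eq6 was 8.0 times the next stem. As_2260, at 17.4, had 66.3, 41.8 and 65.3 CPM in subtropical stems and 7.09, 46.3 and 124 CPM in equatorial stems, again with Eq6 highest.

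The Eq6 stem was the highest of the 6 for 95 of the 200 members (47.5%), against 28.5% of coding transcripts counted in all 6 stems. With library sizes scaled by TMM (edgeR's trimmed mean of M-values) in place of the plain total, these were 88 members (44.0%) and 25.4%. The Eq6 stem was more than 2 times the next stem for 14 members (7.0%), against 4.17% of coding transcripts. After As_20044, the most extreme were As_25028, at 96.1 CPM in Eq6 and at most 15.6 CPM in another stem, As_1490, at 93.4 and 16.6 CPM, and As_4177, at 26.0 and 6.23 CPM. These 3 were named after their values were seen. The lowest stem of a member was most often Eq4, for 48 members, and St2, for 44, but with TMM scaling it was St2 for 90 and Eq4 for 23.

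**Figure D4:**
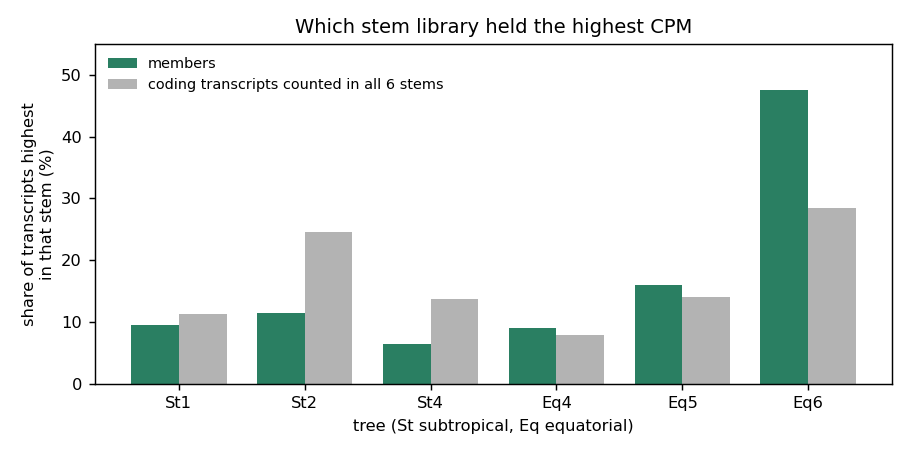
Share of transcripts (y axis, percent) for which each of the 6 stem libraries (x axis) held the highest CPM, for the 200 members and for the 25440 coding transcripts counted in all 6 stems. The Eq6 bar of the members stands at 47.5%, against 28.5% for the coding transcripts, and the St2 bar at 11.5% against 24.5%.

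The same stem library stood apart in markers of woody tissue. A list of 13 transcripts with annotations of secondary wall formation was read, among them As_17083, As_14056 and As_12790 (CESA4, CESA7 and CESA8, the cellulose synthases of secondary walls), As_15146 (LAC4, a laccase of lignin formation) and As_38619 (NST1, a regulator of secondary wall formation). The 13 come from the study's list of transcripts that differed between sites in these same data. The study reported its cell wall transcripts as higher in equatorial samples and cited its leaf comparison for them. A site difference in a tissue where they were called therefore follows from the choice. All 13 were highest in the Eq6 stem, at 8.48 to 14.4 times the median of the other 5 stems. Their summed level was 355 to 833 CPM in subtropical stems, and at most 453 CPM in the Eq4 and Eq5 stems but 4112 CPM in the Eq6 stem, with none of the 13 at 0 in any stem. In leaves the sum was 8.23 to 11.2 CPM at the subtropical site and 16.4 to 132 CPM at the equatorial site, and in flowers 100 to 263 CPM. Its part in the members' levels in Eq6 was not tested. Without the Eq6 stem library, the rule gave 186 of the 200 members again.

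The markers are listed by the study with annotations and so could not be members, but their scores can be read. Of the 13, LAC4 scored 0.11 and NST1 0.24, the other 11 scored below 0, and none would have entered the 200. The score compares the lowest stem with the highest other library. CESA4 (As_17083) had 157, 62.8 and 106 CPM in subtropical stems and 34.0, 87.6 and 743 CPM in equatorial stems, but 38.6 CPM in the Eq4 flower, above the Eq4 stem. Of 35 transcripts that the study lists under cell wall biosynthesis, 3 scored above 0, and the highest was As_45261 (MYB52, a MYB transcription factor), at 1.03 the equal of rank 245. The 6 green tissue markers, transcripts of photosystem and related proteins such as As_16502 (PSBO1) and As_26420 (PSAO), summed to 220 to 301 CPM in subtropical stems and 97.5 to 207 CPM in equatorial stems, against 612 to 824 CPM in subtropical leaves and 164 to 278 CPM in equatorial leaves. PSAO alone held 345 to 504 CPM in the subtropical leaves. As_27536 (ATPD) was higher in the Eq6 stem, at 8.44 CPM, than in the Eq6 leaf, at 4.41 CPM. As_15863 (PSB27) was higher in the Eq4 stem, at 17.8 CPM, than in the Eq4 leaf, at 13.8 CPM. Otherwise each of the 6 was higher in the leaf of a tree than in its stem. None of the 6 was at 0 in a stem. These 6 also come from the study's list of transcripts that differed between sites in these data. The study reported various transcripts of the photosynthetic apparatus as higher in subtropical samples. Their site difference in a tissue where they were called thus follows from the choice too.

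The study compared the sites within a tissue with edgeR's exact test. The same contrast was tested here in stems mainly with edgeR's quasi-likelihood test, 3 subtropical against 3 equatorial libraries. All 34269 transcripts that passed the filter on low counts were tested, with Benjamini-Hochberg adjustment over all of them. The rule for members uses the lowest of the 6 stems and so limits a site difference. It does not fix the direction, but it can favour 1 direction where the sites differ in spread. All 200 members passed the filter, and none was called at an adjusted p under 0.05. Over all transcripts 78 were called (0.228%), a rate under which fewer than 1 of 200 members would be called. At an unadjusted p under 0.05 there were 18 members (9.0%), against 9.03% of all transcripts tested. A joint fit of all 18 libraries gave only 6 members (3.0%), against 8.92%, all 6 lower in subtropical stems. Each other alternative gave 8.0 to 15.0% of members, against 6.56 to 10.0% of all transcripts. The exact test, the kind that the study used, called 5 of 200 members (2.5%), against 571 (1.67%) of all transcripts tested. In stems and in leaves the study itself reported more transcripts than the exact test called here, and the quasi-likelihood test called fewer still. DESeq2 called 7 of the 197 that it gave a p (3.55%), against 1.27% of 48422 transcripts, among them low counts that the filter removes from the other tests. None of these shares was tested for a difference. For no single member does the quasi-likelihood test show the sites to be equal, since the median standard error of a log2 fold change was 0.35.

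The direction of the 18 was uneven. There were 3 higher and 15 lower in subtropical stems, so that 7.5% of members were in the lower group against 3.94% of all transcripts tested. The median log2 fold change of the members was -0.16, against -0.02 over all transcripts, and 68.0% of members had a negative value, against 51.6%. This rested in part on the Eq6 stem. Without it the median was -0.04, against 0.03 over all transcripts, with 12 higher and 18 lower among 30 members (15%) at an unadjusted p under 0.05, against 10.0% of all transcripts. Without each of the other stems in turn it was between -0.27 and -0.12.

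Ranges were counted as well. All 3 subtropical stems were above all 3 equatorial ones for 7 members (3.5%), against 10.3% of all transcripts tested, and below them for 12 members (6.0%), against 4.91%. With TMM scaling these were 5 members (2.5%), against 7.83%, and 14 members (7.0%), against 8.11%, so that the share of members below was no longer above that of all transcripts. The 19 members without overlap (9.5%, against 15.2% of all transcripts) became 29 to 51 with 1 stem library left out. The count was 51 without Eq6 (25.5%, against 27.8%), with 30 members above and 21 below, and 42 without Eq4 (21.0%, against 25.6%), with 11 above and 31 below. It was 35, 29 and 32 without St1, St2 and St4, and 29 without Eq5. The scaling moved the median log2 ratio of the site means by about as much for the members as for the rest. It was -0.10 for members and 0.06 for all transcripts by plain CPM, and -0.18 and -0.04 with TMM.

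The member with the lowest p was As_45199. It had 19.0, 14.9 and 13.8 CPM in subtropical stems, against 29.4, 29.6 and 52.3 CPM in equatorial stems. The groups did not overlap, but the log2 fold change of -1.29 ± 0.28 (SE) did not pass the threshold over all transcripts (edgeR quasi-likelihood adjusted p = 0.194). DESeq2 (adjusted p = 0.0118) and the exact test (adjusted p = 0.0235) did call it.

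As_25053 had 8.51, 9.20 and 5.85 CPM in subtropical stems, against 16.5, 13.5 and 23.7 CPM in equatorial stems, with a log2 fold change of -1.27 ± 0.29 (SE; edgeR adjusted p = 0.233). As_47037 had 5.92, 7.38 and 3.92 CPM in subtropical stems, against 12.1, 9.88 and 18 CPM in equatorial stems, with a log2 fold change of -1.31 ± 0.33 (SE; edgeR adjusted p = 0.294). DESeq2 called As_25053 (adjusted p = 0.0147) and As_47037 (adjusted p = 0.0334), and the exact test did not. In each of these 3 the Eq6 stem was the highest and no range overlapped.

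In the other direction, As_25345 had 34.3, 29.9 and 20.6 CPM in subtropical stems, against 10.2, 7.61 and 14 CPM in equatorial stems, with a log2 fold change of 1.33 ± 0.30 (SE; edgeR adjusted p = 0.232). As_17304 had 102, 277 and 121 CPM in subtropical stems, against 59.7, 56.8 and 39.4 CPM in equatorial stems, with a log2 fold change of 1.55 ± 0.39 (SE; edgeR adjusted p = 0.294). As_12434 had 409, 434 and 323 CPM in subtropical stems, against 160, 281 and 170 CPM in equatorial stems, with a log2 fold change of 0.84 ± 0.28 (SE; edgeR adjusted p = 0.424). All 3 separated the sites, and none passed the quasi-likelihood threshold. DESeq2 called As_25345 (adjusted p = 0.0219) and As_17304 (adjusted p = 0.0277), the exact test called both too (adjusted p = 0.0348 and 0.0309), and neither called As_12434. The size of the As_17304 difference leaned on the St2 stem, and without it the log2 fold change was 1.04.

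As_11119 was among the 10 members with the highest mean stem CPM. It had 397, 440 and 514 CPM in subtropical stems, against 643, 1019 and 991 CPM in equatorial stems, again without overlap (log2 fold change -1.05 ± 0.27 SE, edgeR adjusted p = 0.294). DESeq2 called it at an adjusted p of 0.00614 and the exact test at 0.0464. As_749, with no count outside stems, had 2.29, 1.62 and 2.55 CPM in subtropical stems, against 8.04, 9.09 and 3.84 CPM in equatorial stems (log2 fold change -1.78 ± 0.45 SE, edgeR adjusted p = 0.294), and DESeq2 (adjusted p = 0.0348) and the exact test (adjusted p = 0.0477) called it.

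**Figure D5:**
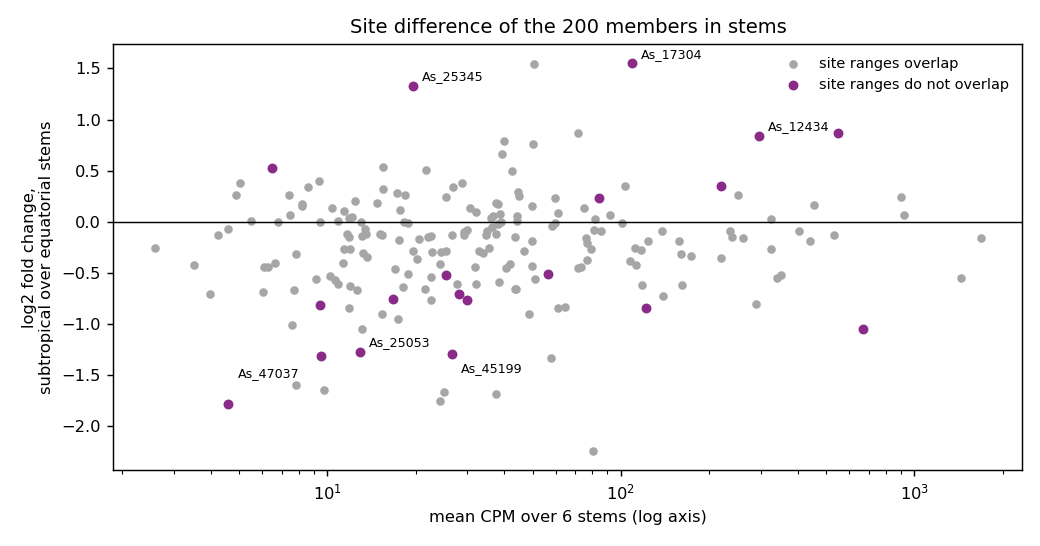
Log2 fold change between sites in stems (y axis, subtropical over equatorial, edgeR) of each of the 200 members against its mean CPM over 6 stems (x axis, log scale). Members whose 3 subtropical and 3 equatorial stems do not overlap in CPM are coloured, and the 6 labelled members have the lowest p in each direction; most points lie below 0, and none passed an adjusted p of 0.05 by the quasi-likelihood test plotted here.

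In leaves, where the rule keeps the members low, 90 of the 200 passed the filter and none was called, against 0.198% of the 28243 transcripts tested. At an unadjusted p under 0.05 there were 11 members, 3 higher and 8 lower in subtropical leaves, which is 12.2% of the 90 against 13.1% of all transcripts tested. The exact test called 3 of the 90, against 3.42% of all transcripts, and DESeq2 called 2 of 190, against 2.42%. Without the Eq6 leaf the quasi-likelihood test called 1 of 95 (1.05%), against 0.357% of all transcripts. As_11082 had 62.6, 115 and 91.1 CPM in subtropical leaves, against 36.1, 34.8 and 35.9 CPM in equatorial leaves, with a log2 fold change of 1.25 ± 0.26 (SE; edgeR adjusted p = 0.118). The same transcript had 955, 954 and 1080 CPM in subtropical stems, against 495, 749 and 1182 CPM in equatorial stems, where the sites overlapped.

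As_16351 went the other way in leaves. It had 1.06, 2.33 and 1.14 CPM in subtropical leaves, against 14.3, 11.0 and 2.61 CPM in equatorial leaves, with a log2 fold change of -2.72 ± 0.70 (SE; edgeR adjusted p = 0.186). Whether the site effect of a member differed between the tissues was tested as the interaction over the 12 stem and leaf libraries. No member was called, against 0.0114% of the 35054 transcripts tested, and 20 members (10.0%) had an unadjusted p under 0.05, against 5.43%. All 200 members entered this test, but 110 of them had too few leaf counts for the leaf test. For these the leaf part rested on low or no leaf counts. Neither the absence of calls nor the shares of members given here therefore speak for all 200. DESeq2 called 95 transcripts (0.196%) and no member, with 24 of 199 members (12.1%) at an unadjusted p under 0.05, against 5.56%. With the tree as a replicate block, 20 transcripts (0.0571%) were called in place of 4, and again no member, with 22 (11.0%) at an unadjusted p under 0.05, against 7.52%. The excess was smaller in a joint fit of all 18 libraries, with 12 members (6.0%) against 5.13%. Without Eq4 it was also small, with 12 members (6.0%) against 5.63%. Without any other tree the share of members was 8.0 to 13.5%, against 3.75 to 5.90%. The difference of the site effects of As_11082 was -1.0 ± 0.43 and that of As_16351 was 2.45 ± 0.79 (SE), with edgeR adjusted p-values of 0.888 and 0.798.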

How the data were processed

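Members, lists and tests were chosen with earlier results of these data known. The authors filtered reads by quality, assembled a transcriptome without a genome, mapped reads to it with bowtie1 (Bowtie 0.12.2 in the submitters' processing notes) and deposited, per transcript, the raw count of uniquely mapped reads, so reads shared by near-identical transcripts are missing. The 18 single-library files equal the columns of the deposited table.

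Levels are counts over the library total, times 1e6 (CPM). Sites were compared with edgeR 4.0.16 (R 4.3.3, limma 3.58.1): TMM scaling, filterByExpr, glmQLFit and glmQLFTest on the counts, adjusted over all transcripts tested, threshold 0.05; SE was obtained by dividing the size of the log2 fold change by the root of the F statistic. DESeq2 1.42.0, edgeR's exact test, RLE scaling, other filters (none; over 1 CPM in at least 3 libraries), a joint fit of the 18 libraries and fits without each tree were alternatives. The quasi-likelihood fit between sites in stems was tried on simulated counts with the same dispersion for all transcripts. The other fits were not tried on simulated data. Stem and leaf of a tree are paired, since they come from 1 tree; their deviations from the group means correlated at -0.0412 (Eq4) to 0.414 (Eq5) across 35054 transcripts.

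Members named in the text are the 10 highest scores, the 10 highest mean stem CPM, the last 3 inside and first 3 outside, the 3 most and 3 least even across stems, and the 3 lowest p between sites in each direction. Biological coefficients of variation were 0.402 in stems and 0.359 in leaves.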

Additional observations from a re-analysis of the deposited data

Results flagged for a closer look

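In 3 of 36 sets of 6 libraries examined (the members' share in each tissue and the stem levels of the 33 named members), 1 library stood far from the others by Dixon's test. Chance gives about 1 in 20 for values not chosen for their spread, but several of these members were named for an uneven stem level or a low p between sites, so that rate does not apply to them. As_20044 was at 345 CPM in the Eq6 stem, with the next stem at 43.1 CPM. As_11168 was at 171 CPM in the Eq5 stem, with the next at 41.4 CPM. As_17304 was at 277 CPM in the St2 stem, with the next at 121 CPM.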

How the results depend on the processing

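The count of members called between sites was 0 in stems under each fit with edgeR's quasi-likelihood test, leaving out each tree included. It became 5 with the exact test (2.5%, against 1.67% of all transcripts) and 7 with DESeq2 (3.55%, against 1.27%). With a tree left out, few transcripts were called in all. These were 0 without Eq4, 5 without Eq5, 10 to 20 without a subtropical tree and 87 without Eq6. So few calls leave little room for a member among them. In leaves the count was 0, but 3 with the exact test (3.33%, against 3.42% of all transcripts) and 2 with DESeq2 (1.05%, against 2.42%). It was between 0 and 1 with a tree left out, where 0 to 105 of all transcripts were called. For the site effect in stems minus leaves no member was called under any alternative, the replicate block by tree included. The main fit called 4 of 35054 transcripts. Without Eq4, Eq5, St1, St2 or St4, 0 transcripts were called in all, so that result for the members was fixed there. Without Eq6, 15 transcripts were called. Of 60 alternative values of the 6 members with the lowest p, none changed direction and 8, all by DESeq2 or the exact test, passed the threshold. The number of members whose sites did not overlap in stems was 19, and 29 to 51 with a stem library left out (14.5 to 25.5%, against 22.6 to 27.8% of all transcripts). Of the 200 members, 142 to 185 were kept with TMM scaling or another pseudocount, 159 to 189 with a tree left out, 111 with medians in place of lowest and highest, 100 without flowers and 100 when 100 were taken. The median share of stem counts was 1.82%. It was 1.48% with TMM scaling, 1.11% with a pseudocount of 0.1, 2.24% with 10, 2.06% with medians, 0.928% for 100 members, 2.61% for 400 and 1.54 to 1.84% with a tree left out (1.58% without Eq4). The cause was not tested. Low leaf counts kept 110 of the 200 members out of the leaf test, and no member sequence, length or name was used here.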

Other observations

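A pair of annotated transcripts that the rule left out had scores within the range of the members. They were chosen after their values were seen, from the study's own list, and were not tested here. As_11264 (RFS4, a galactinol-sucrose galactosyltransferase of raffinose family sugar synthesis) scored 3.02, the equal of rank 21. It had 470, 986 and 826 CPM in subtropical stems and 211, 1086 and 347 CPM in equatorial stems, against at most 25.1 CPM in a leaf or flower library. As_13250 (SIP1, a raffinose synthase family protein) scored 1.69, the equal of rank 105. It had 130, 739 and 425 CPM in subtropical stems and 119, 1271 and 53.1 CPM in equatorial stems, so that its highest stem, Eq5, was 23.9 times its lowest, Eq6. In both the highest stem was Eq5 and the sites overlapped. The Eq6 stem, where the secondary wall markers were highest, was below the median of the other stems for both, at 0.420 and 0.125 times it.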
